A study of Mus musculus with 14 samples.

Results

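The genes described here encode 6 proteins that read methylated lysine 9 of histone H3 (H3K9): the heterochromatin protein 1 (HP1) genes Cbx1, Cbx3 and Cbx5, the chromodomain Y-like genes Cdyl and Cdyl2, and Mphosph8. They were taken by name, and all 6 were found among the 24340 gene symbols of the files. Their RNA was sequenced in 14 libraries, 2 in each of 7 groups, of postnatal male germ cells taken from C57BL/6 testes. Germ cells without either of the H3K9 demethylases Jmjd1a and Jmjd1b (DKO) were measured at postnatal day 7 (P7 DKO) and day 3 (P3 DKO). At day 3 there were also cells without Jmjd1a that kept 1 copy of Jmjd1b (P3 Jmjd1aKO), and cells without Jmjd1b that kept 1 copy of Jmjd1a (P3 Jmjd1bKO). The controls at both ages (P7 Ctrl and P3 Ctrl) carried 1 copy of each gene. All of these groups carry Vasa-Cre, a recombinase driven by the Vasa promoter, which is active in germ cells, so that the controls differ from wild type by the Cre and by 1 copy of each demethylase gene. Wild type cells, for which the labels state no Cre, were measured at day 3 only (P3 WT). Whether the 2 libraries of a group came from different mice is not stated, and the p-values cover the spread between these libraries, which may be technical.

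Methylation of H3K9 marks silent chromatin, and reader proteins recognise it through a chromodomain. HP1 proteins bind the mark, pair with each other through a second, related domain and recruit further silencing factors. The HP1 genes are Cbx5 (HP1 alpha), Cbx1 (HP1 beta) and Cbx3 (HP1 gamma), and in the mouse HP1 gamma is needed for normal male germ cell development. CDYL and CDYL2 join a chromodomain to a domain related to enoyl-CoA hydratases, and CDYL acts as a corepressor together with H3K9 methyltransferases. MPHOSPH8, also called MPP8, is the chromodomain subunit of the HUSH complex, which silences transposons and other integrated sequences.

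Levels are the RPKM deposited by the authors, reads per kilobase of transcript and per mapped reads of each library. Changes are log2 changes of RPKM + 1 with their standard error (SE) from limma, and a gene is called changed at a Benjamini-Hochberg adjusted p under 0.05 over 14772 tested genes. Adding 1 RPKM understates the change of a low gene such as Cdyl2. The depth estimated from the steps between RPKM values ran from 13.5 M to 49.8 M fragments per library, and the P3 WT libraries were the lowest. The deleted genes are listed as Kdm3a (Jmjd1a) and Kdm3b (Jmjd1b). Kdm3a stood at 8.97 and 7.59 RPKM in P7 DKO against 27.2 and 27.1 RPKM in P7 Ctrl, and Kdm3b at 6.49 and 6.73 RPKM in P7 DKO against 17.3 and 16.1 RPKM in P7 Ctrl. At day 3 Kdm3a averaged 13.2 ± 1.55 RPKM in P3 DKO, 9.83 ± 0.011 RPKM in P3 Jmjd1aKO, 25.7 ± 0.48 RPKM in P3 Jmjd1bKO, 27.3 ± 1.5 RPKM in P3 Ctrl and 44.6 ± 0.831 RPKM in P3 WT (SD, n = 2 each). Kdm3b averaged 4.37 ± 0.156 RPKM in P3 DKO, 11.9 ± 2.9 RPKM in P3 Jmjd1aKO, 6.12 ± 1.97 RPKM in P3 Jmjd1bKO, 11.8 ± 2.39 RPKM in P3 Ctrl and 26.9 ± 0.0082 RPKM in P3 WT, so that each gene was lowest in the groups labelled as lacking it. The summed RPKM of 10 germ cell markers ran from 1209 in P3 Jmjd1aKO replicate 2 to 1802 in P7 DKO replicate 2. Among them Ddx4, the RNA helicase also called Vasa, was between 169.5 and 307 RPKM. In P7 DKO against P7 Ctrl 3 of the 10 were called higher and 3 lower, where 17.4% and 16.1% of all tested genes were. The marker Sycp3 is also in the list of differentiating spermatogonia used below. It stood at 134 and 221 RPKM in P7 DKO against 71.3 and 69.3 RPKM in P7 Ctrl, so the germ cell sum is not free of stage. The summed RPKM of 12 Sertoli cell markers was 757 in P3 Jmjd1aKO replicate 2 and 934 in P3 Jmjd1bKO replicate 2, and between 43.9 and 163 in the other 12 libraries. None of the 12 markers was at 0 in any library. In such bulk samples fewer cells of a type and less RNA per cell cannot be told apart.

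**Figure D1:**
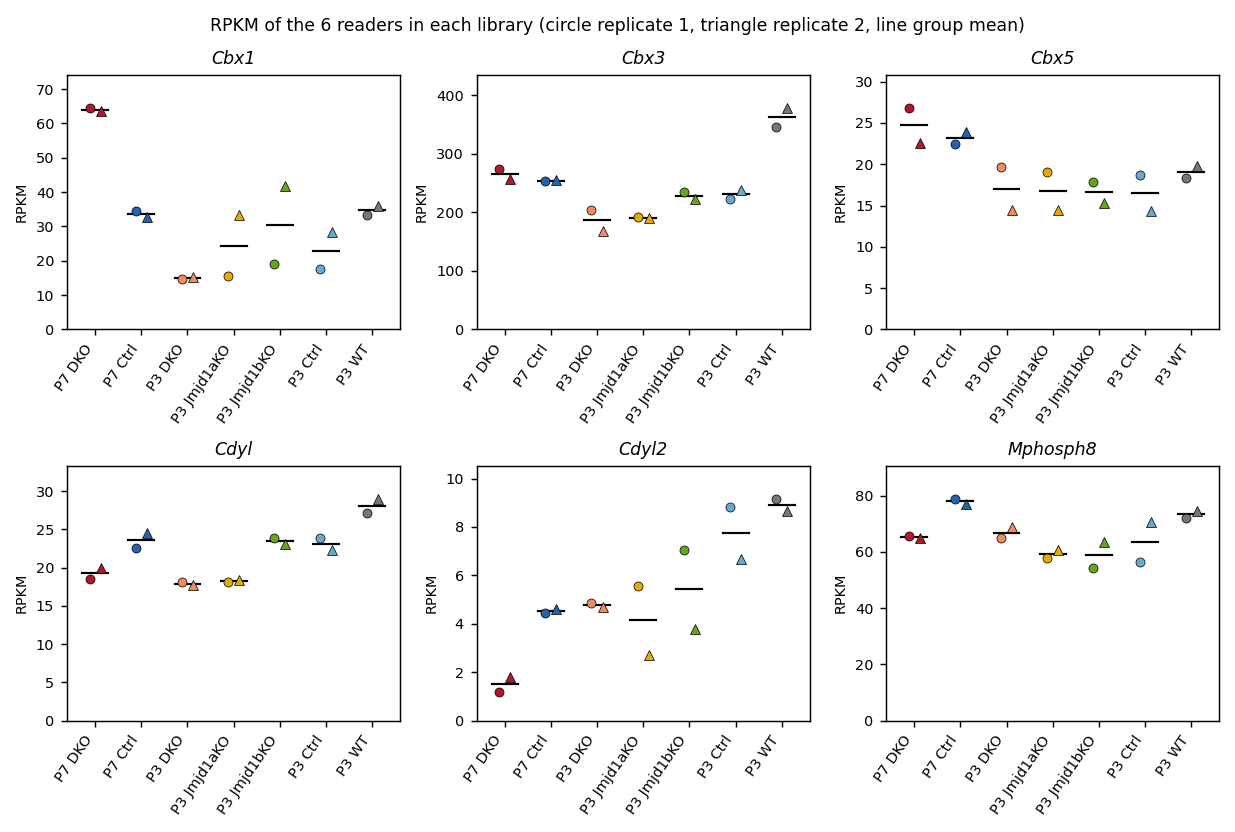
RPKM of each of the 6 genes (y axis, linear, from 0) in the 7 groups (x axis). Circles are replicate 1, triangles replicate 2 and lines the group means. Cbx1 was highest in P7 DKO (64.5 and 63.5 RPKM), Cdyl2 was lowest there (1.18 and 1.82 RPKM), and Cbx1 and Cdyl2 were split between replicates in the single knockouts.

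RPKM are scaled per length, so the levels of the 6 genes can be set side by side. The transcript lengths used for this are not given, so levels of different genes are comparable only as far as those lengths hold. Cbx3 was the highest of the 6 genes in all 14 libraries, Mphosph8 the second in all 14 and Cdyl2 the lowest in all 14. The order of the middle 3 changed: Cbx1 stood above Cdyl in 9 libraries and above Cbx5 in 11, and Cdyl above Cbx5 in 10. Over all libraries Cbx3 averaged 245 RPKM, higher than 97.9% of tested genes, and Mphosph8 66.5 RPKM, higher than 89.8%. Cdyl2 averaged 5.29 RPKM, higher than 36.9% of tested genes. The widest range between libraries was that of Cdyl2, 7.76-fold, followed by Cbx1 with 4.42-fold. Mphosph8 varied least, 1.46-fold between its lowest and highest library.

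The HP1 genes lie on different chromosomes. The 250 bases before a RefSeq start of each are shown because all of these genes were higher in P7 DKO than in P3 DKO. They are from RefSeq (GRCm38.p6), 5′ to 3′ on the strand of the gene, for the first start that RefSeq lists. GENCODE M21 places the start of Cbx3 at 51470360, so all bases printed for Cbx3 lie after that start. Those of Cbx1 run past its GENCODE start at 96789127. Matches to the motifs searched, on either strand, are in capitals.
Cbx1, chr11:96788885-96789134, plus strand: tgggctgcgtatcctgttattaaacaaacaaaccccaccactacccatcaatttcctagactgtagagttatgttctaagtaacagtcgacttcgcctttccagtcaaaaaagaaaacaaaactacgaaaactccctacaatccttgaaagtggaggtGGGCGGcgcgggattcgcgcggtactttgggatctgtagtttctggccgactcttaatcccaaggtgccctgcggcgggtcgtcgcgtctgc
Cbx3, chr6:51470366-51470615, plus strand: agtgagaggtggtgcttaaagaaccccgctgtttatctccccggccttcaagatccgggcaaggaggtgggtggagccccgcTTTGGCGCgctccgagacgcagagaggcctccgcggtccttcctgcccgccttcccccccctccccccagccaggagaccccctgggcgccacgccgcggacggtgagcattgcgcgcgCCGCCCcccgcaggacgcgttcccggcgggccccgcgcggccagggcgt
Cbx5, chr15:103239853-103240102, minus strand: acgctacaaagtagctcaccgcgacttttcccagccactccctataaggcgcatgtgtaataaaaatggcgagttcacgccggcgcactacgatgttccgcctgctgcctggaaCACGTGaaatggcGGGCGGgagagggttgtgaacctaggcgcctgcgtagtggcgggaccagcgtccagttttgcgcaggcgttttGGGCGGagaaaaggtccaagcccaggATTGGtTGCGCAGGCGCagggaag

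Motifs were searched on both strands from 250 bases before to 50 after each start, and shares are of all 32851 RefSeq promoters of that length. The HP1 windows described here are those of the printed starts. RefSeq lists a further start for Cbx3, with no match to any motif searched. It also lists a further start for Cbx5, with a match to GGGCGG only. The Sp1 motif GGGCGG, in all windows of the printed starts, is in 35.7% of promoters. The E2F motif TTTGGCGC in the Cbx3 window is in 0.514%, and TTTGGCGG, which lies 7 bases after the Cbx5 start and overlaps a GGGCGG, in 0.56%. The NRF1 motif of the Cbx5 window (TGCGCA and GCGC with any base between them) is in 2.44%, the E-box CACGTG in 7.15% and the CCAAT box, here as ATTGG next to the NRF1 motif, in 37.4%. No match was found in the HP1 windows for the E2F form TTTCGCGC, the YY1 motif (AANATGG followed by CGGC) or the CRE TGACGTCA. The Cbx1 window had a GC content of 52.7%, the same as the median promoter (52.7%), and 22 CpG against a median of 7. The Cbx3 window had a GC content of 75.3% and 34 CpG, and the Cbx5 window 60.3% and 29 CpG. A match says only that these letters are present.

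Cbx1 (chromosome 11, 96789127 to 96808640, GRCm38, GENCODE M21) encodes HP1 beta and had the largest log2 change of the 6 genes, between P7 DKO and P3 DKO. It stood at 64.5 and 63.5 RPKM in P7 DKO and at 34.6 and 32.9 RPKM in P7 Ctrl. At day 3 it had 14.6 and 15.2 RPKM in P3 DKO, 15.6 and 33.2 RPKM in P3 Jmjd1aKO, 19.2 and 41.8 RPKM in P3 Jmjd1bKO, 17.5 and 28.2 RPKM in P3 Ctrl and 33.5 and 35.9 RPKM in P3 WT. Both P7 DKO libraries lay above every other library, and both P3 DKO libraries below every other. In the order of group means, P3 WT, P7 Ctrl, P3 Jmjd1bKO, P3 Jmjd1aKO and P3 Ctrl each overlapped with the next. In P3 Ctrl and both single knockouts replicate 2 held 1.62, 2.13 and 2.18 times the level of replicate 1. The summed RPKM of 20 G2 and mitosis genes was also higher in replicate 2 of these groups: 1087 against 735 in P3 Jmjd1aKO, 1517 against 1108 in P3 Jmjd1bKO and 1323 against 953 in P3 Ctrl. In P3 Ctrl the Sertoli sum was lower in replicate 2 (43.9 against 57.4 RPKM). The part of Sertoli RNA or of cycling cells in the Cbx1 values was not tested.

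Cbx3 (chromosome 6, 51470360 to 51483704), the gene of HP1 gamma, was highest in P3 WT. Its level was 274 and 256 RPKM in P7 DKO and 253 and 255 RPKM in P7 Ctrl. At day 3 the values were 204 and 169 RPKM in P3 DKO, 193 and 189 RPKM in P3 Jmjd1aKO, 235 and 222 RPKM in P3 Jmjd1bKO, 223 and 239 RPKM in P3 Ctrl and 346 and 378 RPKM in P3 WT. P3 WT lay above all other libraries, while P3 Jmjd1bKO overlapped with P3 Ctrl and P3 Jmjd1aKO with P3 DKO. GENCODE names 8 pseudogenes of Cbx3, and none of them has its own row in the files. How reads that match both were counted is not given in the sources used here, so the level of Cbx3 is uncertain to that extent.

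Cbx5 (chromosome 15, 103191544 to 103239816, minus strand), the gene of HP1 alpha, was higher in every library of day 7 than in any of day 3. It stood at 26.8 and 22.6 RPKM in P7 DKO and 22.5 and 23.9 RPKM in P7 Ctrl. At day 3 its level was 19.7 and 14.5 RPKM in P3 DKO, 19.1 and 14.4 RPKM in P3 Jmjd1aKO, 17.9 and 15.3 RPKM in P3 Jmjd1bKO, 18.6 and 14.4 RPKM in P3 Ctrl and 18.3 and 19.8 RPKM in P3 WT. The 4 libraries of day 7 lay above the 10 of day 3, and the 5 groups of day 3 overlapped with their neighbours in the order of means. The share of all tested genes that separate by age in this way was not counted. With age 23.3% of them were called in controls, where Cbx5 did not pass (limma adjusted p = 0.0885). In DKO cells 58.3% were called and Cbx5 passed (0.0351), a call not kept under all alternatives.

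Cdyl (chromosome 13, 35659833 to 35874063), the gene of the CDYL corepressor, had replicates that lay close together in every group. It stood at 18.5 and 20.02 RPKM in P7 DKO against 22.5 and 24.6 RPKM in P7 Ctrl. At day 3 the values were 18.1 and 17.7 RPKM in P3 DKO, 18.1 and 18.4 RPKM in P3 Jmjd1aKO, 23.8 and 23.03 RPKM in P3 Jmjd1bKO, 23.9 and 22.3 RPKM in P3 Ctrl and 27.1 and 28.96 RPKM in P3 WT. The 3 groups that lack Jmjd1a held the 6 lowest libraries, and P3 WT the 2 highest. Against the control of its age P7 DKO passed (limma adjusted p = 0.0369), while P3 DKO (0.0549) and P3 Jmjd1aKO (0.332) did not. The share of all tested genes with this order of libraries was not counted. P7 Ctrl, P3 Jmjd1bKO and P3 Ctrl overlapped with each other.

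Cdyl2 (chromosome 8, 116574400 to 116732991, minus strand), the CDYL paralog, stood at 1.18 and 1.82 RPKM in P7 DKO and at 4.44 and 4.63 RPKM in P7 Ctrl. At day 3 the level was 4.88 and 4.69 RPKM in P3 DKO, 5.57 and 2.72 RPKM in P3 Jmjd1aKO, 7.05 and 3.80 RPKM in P3 Jmjd1bKO, 8.82 and 6.66 RPKM in P3 Ctrl and 9.15 and 8.68 RPKM in P3 WT. Both P7 DKO libraries lay below all others, and in the single knockouts the library with high Sertoli transcripts was the lower of the 2. With the single transcript that GENCODE lists for Cdyl2 (2411 nucleotides), the lowest value, 1.18 RPKM in P7 DKO replicate 1, stands for about 64 fragments. Its exact Poisson 95% interval is 0.91 to 1.51 RPKM, against 3.89 to 5.06 RPKM for P7 Ctrl replicate 1, and covers counting error only.

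Mphosph8 (chromosome 14, 56668248 to 56697430), the gene of the HUSH reader, was the steadiest of the 6 genes. It stood at 65.6 and 65.1 RPKM in P7 DKO and 78.8 and 77.1 RPKM in P7 Ctrl. At day 3 there were 64.96 and 68.8 RPKM in P3 DKO, 57.9 and 60.7 RPKM in P3 Jmjd1aKO, 54.1 and 63.4 RPKM in P3 Jmjd1bKO, 56.5 and 70.8 RPKM in P3 Ctrl and 72.02 and 74.7 RPKM in P3 WT. P7 Ctrl lay above all other libraries and P3 WT above the rest, while the other groups overlapped with their neighbours in the order of means.

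**Figure D2:**
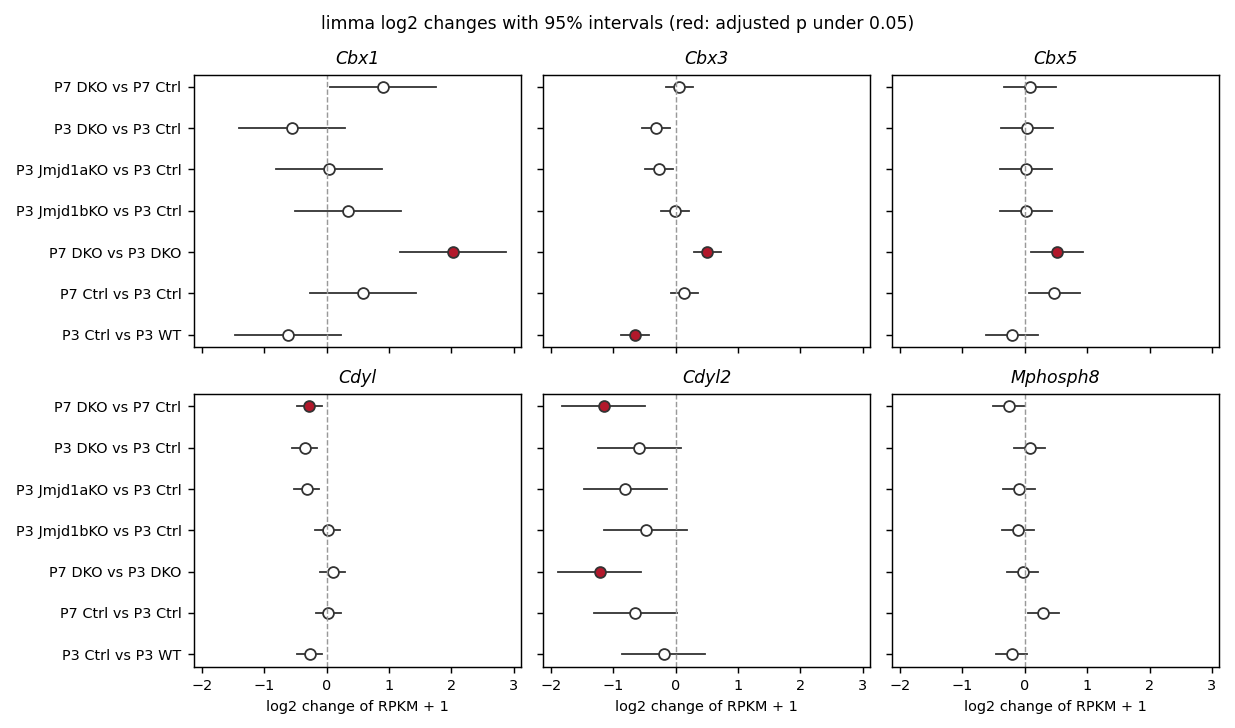
Log2 changes of RPKM + 1 from limma (x axis) with 95% intervals for each gene in 7 comparisons (y axis). Filled red points have an adjusted p under 0.05. Cdyl and Cdyl2 were lower in P7 DKO than in P7 Ctrl, where 33.5% of all tested genes were called. Between P7 DKO and P3 DKO 4 of the 6 genes differed, where 58.3% of all tested genes were called. Only Cbx3 differed between P3 Ctrl and P3 WT (0.704% of all tested genes).

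The comparison of P7 DKO with P7 Ctrl asks how readers of the mark are expressed at day 7 in cells that lack both enzymes. Both CDYL genes were lower and no reader gene was called higher, so 2 of 6 genes were called, where 33.5% of all tested genes were (17.4% higher and 16.1% lower). Cdyl2 averaged 1.5 ± 0.454 RPKM in P7 DKO and 4.53 ± 0.135 RPKM in P7 Ctrl (SD, n = 2 each), a log2 change of -1.16 ± 0.30 (limma, adjusted p = 0.0145). Cdyl averaged 19.3 ± 1.08 RPKM in P7 DKO and 23.6 ± 1.46 RPKM in P7 Ctrl (log2 change -0.28 ± 0.089, adjusted p = 0.0369). Cbx1 averaged 64 ± 0.739 RPKM in P7 DKO and 33.7 ± 1.2 RPKM in P7 Ctrl (log2 change 0.91 ± 0.38, limma adjusted p = 0.095). Its libraries did not overlap, and its SE, estimated over all 14 libraries, takes in the split between the day 3 replicates. Cbx1 passed as higher when only the libraries compared were fitted (limma adjusted p = 0.01) and without the 2 libraries with high Sertoli transcripts (0.00587), with a range of 0.00587 to 0.259 over its 11 alternatives. Mphosph8 was at 65.3 ± 0.369 RPKM in P7 DKO and 77.9 ± 1.18 RPKM in P7 Ctrl and did not pass (limma log2 change -0.25 ± 0.11, adjusted p = 0.115), but it passed with only the libraries compared (0.032) and under quantile normalization (0.0332, range over alternatives 0.032 to 0.317). Cbx3 and Cbx5 had log2 changes of 0.06 (95% interval -0.16 to 0.28) and 0.08 (-0.33 to 0.50). The call of Cdyl2 was lost without P7 Ctrl replicate 1, P7 Ctrl replicate 2 or P7 DKO replicate 1 (limma adjusted p = 0.0675, 0.0758 and 0.0793), and so was that of Cdyl (0.0805, 0.238 and 0.137). That of Cdyl was also lost under median-centring (0.0988) and with only the libraries compared (0.0849). Over the 11 alternatives the adjusted p ran from 0.0014 to 0.0793 for Cdyl2 and from 0.0144 to 0.238 for Cdyl.

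Genes of germ cell stages also differed in P7 DKO. The summed RPKM of 20 genes of undifferentiated spermatogonia was 380 and 230.5 in P7 DKO against 1133 and 1126 in P7 Ctrl, with 17 genes called lower and 1 higher. That of 11 genes of differentiating spermatogonia was 994 and 1197 in P7 DKO against 473 and 471 in P7 Ctrl, with 8 called higher and 1 lower. The Sertoli sum overlapped between these groups, at 91.7 and 163 RPKM in P7 DKO against 113 and 125 RPKM in P7 Ctrl, and the 6 Leydig cell markers summed to 1.62 and 2.17 RPKM in P7 DKO against 1.7 and 1.24 RPKM in P7 Ctrl. The 8 endothelial markers summed to 4.0 and 2.56 RPKM in P7 DKO against 17.3 and 15.7 RPKM in P7 Ctrl, and 3 of the 6 tested were called lower. The 10 stromal and peritubular markers summed to 9.998 and 8.94 RPKM in P7 DKO against 21.9 and 22.1 RPKM in P7 Ctrl, and 2 of the 9 tested were called lower. The part of these markers in the values of Cdyl2 and Cbx1 was not tested.

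At day 3 none of the 6 genes passed in P3 DKO against P3 Ctrl, which asks the same at day 3. With limma 4.47% of all tested genes were called (2.18% higher and 2.29% lower). A limma unadjusted p under 0.05 was reached by 3623 of the 14772 tested genes and by 2 of the 6. The lower values were those of Cdyl, at 17.9 ± 0.309 RPKM in P3 DKO and 23.1 ± 1.12 RPKM in P3 Ctrl (log2 change -0.35 ± 0.089, limma adjusted p = 0.0549), and of Cbx3, at 187 ± 25 RPKM in P3 DKO and 231 ± 11.2 RPKM in P3 Ctrl (-0.31 ± 0.10, adjusted p = 0.0976). Cdyl passed as lower without a filter on low values (limma adjusted p = 0.0198), under median-centring (0.0459) and without the libraries with high Sertoli transcripts (0.0443, range over alternatives 0.0198 to 0.263). Cbx1, Cdyl2, Mphosph8 and Cbx5 had log2 changes of -0.55 ± 0.38, -0.59 ± 0.30, 0.08 ± 0.11 and 0.04 ± 0.19. The change of Cbx3 was -0.17 without P3 DKO replicate 2, -0.45 without P3 DKO replicate 1 and -0.039 under quantile normalization. That of Cbx1 was -0.22 without P3 Ctrl replicate 2 and -0.88 without P3 Ctrl replicate 1. The median change of the 6 was -0.33, against 0.01 over all tested genes.

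Marker lists moved with these values at day 3. The 24 DNA replication genes summed to 1621 and 1459 RPKM in P3 DKO against 2148 and 2569 RPKM in P3 Ctrl, with 11 called lower and none higher. The G2 and mitosis sum was 741 and 661 RPKM in P3 DKO against 953 and 1323 RPKM in P3 Ctrl, with 2 of 20 called lower. The undifferentiated spermatogonia sum was 651 and 631 RPKM in P3 DKO against 994 and 950.1 RPKM in P3 Ctrl, with 2 called lower and 2 higher. The Sertoli sum was 74.9 and 81.9 RPKM in P3 DKO against 57.4 and 43.9 RPKM in P3 Ctrl, and the stromal and peritubular sum 36.1 and 34.4 RPKM in P3 DKO against 26.1 and 18.2 RPKM in P3 Ctrl, with no gene of either list called. The endothelial sum was 27.3 and 30.98 RPKM in P3 DKO against 48.7 and 39.0 RPKM in P3 Ctrl, with 1 marker called higher and 1 lower of 6 tested. The part of these lists in the values of Cdyl, Cbx3 and Cbx1 was not tested.

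The difference between the DKO changes at the 2 ages was tested as an interaction. In it 22.9% of tested genes (12.2% higher and 10.7% lower) and 0 of the 6 were called. At an unadjusted p under 0.05 in limma there were 5519 of the 14772 tested genes and 2 of the 6. The DKO libraries of Cbx1 and Cbx3 lay above the controls at day 7 and below them at day 3, without overlap, as 21.6% of all tested genes did in this direction or the opposite one. Cbx1 differed most, with a DKO change that was more positive at day 7 by 1.45 ± 0.54 on the log2 scale (limma adjusted p = 0.0785). It passed with only the libraries of these groups (0.0119) and without the libraries with high Sertoli transcripts (0.00562, range over 15 alternatives 0.00562 to 0.233). For Cbx3 the difference was 0.37 ± 0.14 (adjusted p = 0.0859), it was -0.16 under quantile normalization, and it passed without P3 DKO replicate 1 (0.51, adjusted p = 0.0329, range over alternatives 0.0329 to 0.5). Mphosph8 differed by -0.33 ± 0.16 (adjusted p = 0.16) and passed under quantile normalization (0.0232) and without P3 Ctrl replicate 2 (0.0495, range over alternatives 0.0232 to 0.417). For the CDYL genes the intervals were wide: -0.57 for Cdyl2 (95% interval -1.51 to 0.37) and 0.07 for Cdyl (-0.21 to 0.35).

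The single knockouts ask what loss of 1 enzyme does while a copy of the other remains. None of the 6 genes passed in either, where 0.0338% of tested genes were called in P3 Jmjd1aKO (0.0135% higher and 0.0203% lower) and 0.0203% in P3 Jmjd1bKO (0.00677% higher and 0.0135% lower). At an unadjusted p under 0.05 in limma there were 3 of the 6 in P3 Jmjd1aKO and 0 in P3 Jmjd1bKO. Of the 14772 tested genes, 1484 reached this unadjusted threshold in P3 Jmjd1aKO and 268 in P3 Jmjd1bKO. In P3 Jmjd1aKO, Cdyl averaged 18.3 ± 0.177 RPKM, against 23.1 ± 1.12 RPKM in P3 Ctrl (log2 change -0.32 ± 0.089, limma adjusted p = 0.332). Cbx3 averaged 191 ± 2.26 RPKM in P3 Jmjd1aKO and 231 ± 11.2 RPKM in P3 Ctrl (-0.27 ± 0.10, adjusted p = 0.411) and Cdyl2 4.14 ± 2.01 RPKM in P3 Jmjd1aKO and 7.74 ± 1.53 RPKM in P3 Ctrl (-0.81 ± 0.30, adjusted p = 0.41). In P3 Jmjd1bKO the values of Cdyl and Cbx3 were 23.4 ± 0.559 RPKM and 229 ± 9.12 RPKM, with log2 changes against P3 Ctrl of 0.02 (95% interval -0.18 to 0.22) and -0.01 (-0.24 to 0.21). The comparisons share the P3 Ctrl libraries. Cbx1 changed sign without the library with high Sertoli transcripts: its log2 change was 0.04 ± 0.38 with both P3 Jmjd1aKO libraries and -0.48 without replicate 2, and in P3 Jmjd1bKO it was 0.34 ± 0.38 with both libraries and -0.20 without replicate 2. Without P3 Ctrl replicate 1 it was -0.29 in P3 Jmjd1aKO. The change of Cdyl2 in P3 Jmjd1aKO was -0.40 without replicate 2 and -1.22 without replicate 1, and in P3 Jmjd1bKO it was -0.48 ± 0.30 with both libraries, -0.11 without replicate 2 and -0.85 without replicate 1.

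Day 7 was also compared with day 3 in each genotype. In P7 DKO against P3 DKO 4 of the 6 passed, where 58.3% of all tested genes did (27.8% higher and 30.5% lower): the HP1 genes were higher at day 7 and Cdyl2 lower. Cbx1 averaged 64 ± 0.739 RPKM in P7 DKO and 14.9 ± 0.39 RPKM in P3 DKO (SD, n = 2 each), a log2 change of 2.03 ± 0.38 (limma adjusted p = 0.00144), and this call held under all 11 alternatives. Cbx3 averaged 265 ± 12.1 RPKM in P7 DKO and 187 ± 25 RPKM in P3 DKO (0.51 ± 0.10, adjusted p = 0.00185), and Cbx5 24.7 ± 3 RPKM in P7 DKO and 17.1 ± 3.67 RPKM in P3 DKO (0.52 ± 0.19, adjusted p = 0.0351). Cdyl2 averaged 1.5 ± 0.454 RPKM in P7 DKO and 4.78 ± 0.133 RPKM in P3 DKO (-1.22 ± 0.30, adjusted p = 0.0059). Under quantile normalization the changes of Cbx3, Cbx5 and Cdyl2 did not pass (limma adjusted p = 0.918, 0.119 and 0.0702), and that of Cbx3 was -0.015. The adjusted p over alternatives ran from 0.00132 to 0.918 for Cbx3, from 0.0122 to 0.248 for Cbx5 and from 0.000435 to 0.0702 for Cdyl2. For Cbx5 the call also failed with no filter on low values (0.0595), with only the libraries compared (0.0746), and without P3 DKO replicate 2 (0.248) or P7 DKO replicate 1 (0.168). Mphosph8 had a log2 change of -0.03 ± 0.11 and passed as lower under quantile normalization only (-0.33, adjusted p = 0.0231, range over alternatives 0.0231 to 0.972).

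Stage lists and the endothelial and stromal lists also differed in P7 DKO against P3 DKO. Of 24 DNA replication genes 21 were called higher and none lower (sums of 2953 and 2711 RPKM in P7 DKO against 1621 and 1459 RPKM in P3 DKO). Of 20 G2 and mitosis genes 18 were called higher and none lower (1470 and 1255 RPKM in P7 DKO against 741 and 661 RPKM in P3 DKO). Of 20 undifferentiated spermatogonia genes 14 were called lower and 2 higher (380 and 230.5 RPKM in P7 DKO against 651 and 631 RPKM in P3 DKO). All 6 tested endothelial markers were called lower (4.0 and 2.56 RPKM in P7 DKO against 27.3 and 30.98 RPKM in P3 DKO). Of 9 stromal and peritubular markers 3 were called lower (9.998 and 8.94 RPKM in P7 DKO against 36.1 and 34.4 RPKM in P3 DKO). Of all tested genes 30.5% were called lower and 27.8% higher. None of the 12 Sertoli markers, 5 tested Leydig markers and 2 tested leukocyte markers was called. The part of these lists in the changes of the HP1 genes and Cdyl2 was not tested.

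In control cells none of the 6 passed between the ages, where 23.3% of tested genes did (9.94% higher and 13.4% lower). An unadjusted p under 0.05 in limma was found for 5814 of the 14772 tested genes and for 2 of the 6. Cbx5 averaged 23.2 ± 0.963 RPKM in P7 Ctrl and 16.5 ± 3.02 RPKM in P3 Ctrl (log2 change 0.48 ± 0.19, limma adjusted p = 0.0885), and Mphosph8 77.9 ± 1.18 RPKM in P7 Ctrl and 63.6 ± 10.1 RPKM in P3 Ctrl (0.30 ± 0.11, adjusted p = 0.0798). Mphosph8 passed as higher without P3 Ctrl replicate 2 (adjusted p = 0.0286). Over the alternatives the adjusted p ran from 0.0372 to 0.338 for Cbx5 and from 0.0286 to 0.469 for Mphosph8. Cbx1 and Cdyl2 had log2 changes of 0.58 ± 0.38 and -0.65 ± 0.30, and both passed without the libraries with high Sertoli transcripts (limma adjusted p = 0.0408 and 0.0212). Over the alternatives it ran from 0.0408 to 0.777 for Cbx1 and from 0.0212 to 0.47 for Cdyl2. The libraries left out are in neither group and act only through the estimate of the spread. Without P3 Ctrl replicate 1 the change of Cbx1 was 0.25 and that of Mphosph8 0.14, and without P3 Ctrl replicate 2 that of Cbx1 was 0.91, that of Mphosph8 0.46 and that of Cbx5 0.30. The G2 and mitosis sum was 1396 and 1415 RPKM in P7 Ctrl against 953 and 1323 RPKM in P3 Ctrl, and the Sertoli sum 113 and 125 RPKM in P7 Ctrl against 57.4 and 43.9 RPKM in P3 Ctrl. The endothelial sum was 17.3 and 15.7 RPKM in P7 Ctrl against 48.7 and 39.0 RPKM in P3 Ctrl, with 4 of 6 tested markers called lower and 1 higher. Of the 20 genes of undifferentiated spermatogonia, 7 were called higher and 1 lower. The part of these lists in the changes with age was not tested.

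P3 Ctrl against P3 WT sets cells with Cre and 1 copy of each demethylase gene beside wild type cells. Cbx3 was lower and the only reader called of 6, where 0.704% of tested genes were called (0.406% higher and 0.298% lower). It averaged 231 ± 11.2 RPKM in P3 Ctrl and 362 ± 22.9 RPKM in P3 WT (SD, n = 2 each), a log2 change of -0.65 ± 0.10 (limma adjusted p = 0.0352). The call was lost with only the libraries compared (adjusted p = 0.121), under quantile normalization (0.0512), and without P3 Ctrl replicate 1 (0.338), P3 WT replicate 1 (0.125) or P3 WT replicate 2 (0.23), with a range of 0.0162 to 0.338 over alternatives. Cdyl averaged 23.1 ± 1.12 RPKM in P3 Ctrl and 28.03 ± 1.31 RPKM in P3 WT and did not pass (log2 change -0.27 ± 0.089, limma adjusted p = 0.109). All 6 genes had a negative log2 change, with a median of -0.24 against 0.02 over all tested genes. The 24 genes of DNA replication summed to 2148 and 2569 RPKM in P3 Ctrl against 2925 and 2947 RPKM in P3 WT, with none called. The G2 and mitosis sum was 953 and 1323 RPKM in P3 Ctrl against 1743 and 1710 RPKM in P3 WT. The Sertoli sum was 57.4 and 43.9 RPKM in P3 Ctrl against 110.05 and 142 RPKM in P3 WT, and the endothelial sum 48.7 and 39.0 RPKM in P3 Ctrl against 22.8 and 18.5 RPKM in P3 WT. No gene of these lists was called, none of their groups overlapped, and their part in the Cbx3 change was not tested. Cre, the copy number of the demethylase genes and the depth of the P3 WT libraries cannot be told apart here.

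**Figure D3:**
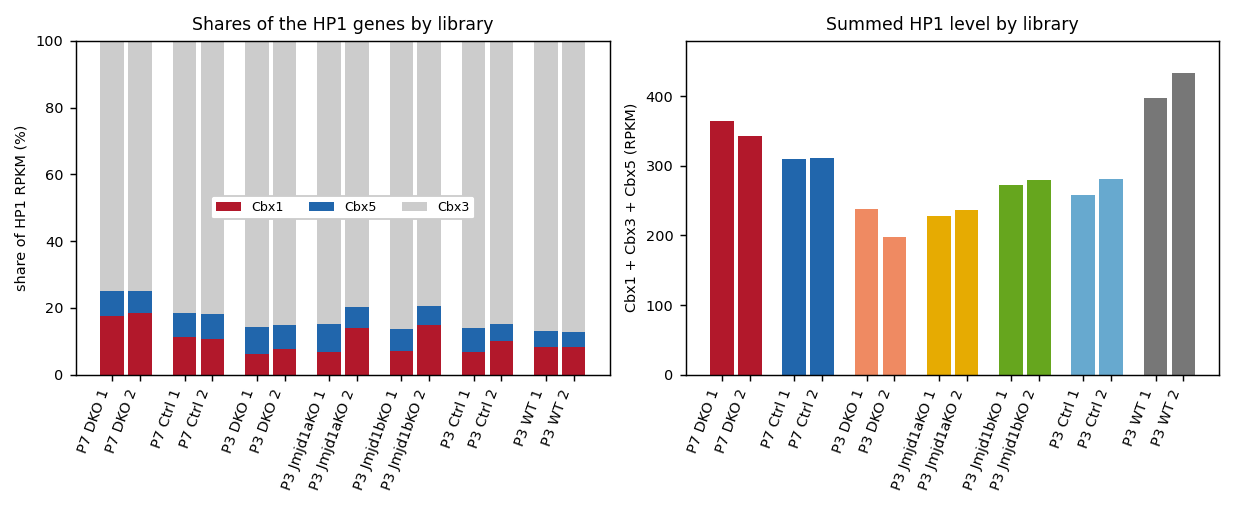
Left, the share of Cbx1, Cbx5 and Cbx3 in their summed RPKM (%, stacked) in each library. Right, the summed RPKM of the 3 genes. The Cbx1 share was 17.7 and 18.5% in P7 DKO, above all other libraries, and the sum was largest in P3 WT (398 and 434 RPKM).

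The HP1 genes can also be read as a mixture. The shares rest on transcript lengths and on a handling of reads from Cbx3 pseudogenes that are not given. Cbx3 made up most of the HP1 RNA in every library, from 74.9 to 87.2% of the summed RPKM of Cbx1, Cbx3 and Cbx5. Its share was 75 and 74.9% in P7 DKO and 81.6 and 81.8% in P7 Ctrl. The share of Cbx1 was 18.1 ± 0.601% in P7 DKO and 10.8 ± 0.443% in P7 Ctrl (SD, n = 2 each), a difference of 7.27 percentage points. At day 3 it was 6.13 and 7.64% in P3 DKO, 6.87 and 14.01% in P3 Jmjd1aKO, 7.04 and 14.98% in P3 Jmjd1bKO, 6.75 and 10.04% in P3 Ctrl and 8.41 and 8.27% in P3 WT. The P7 DKO libraries lay above all others, and the P3 DKO libraries overlapped with P3 Ctrl. The share of Cbx5 was 7.36 and 6.6% in P7 DKO against 7.26 and 7.65% in P7 Ctrl. The HP1 sum was 354 ± 15.8 RPKM in P7 DKO and 311 ± 1.62 RPKM in P7 Ctrl, and 219 ± 28.3 RPKM in P3 DKO and 270 ± 15.8 RPKM in P3 Ctrl. An exact two-sided permutation test of 2 against 2 libraries cannot go below p = 0.3333, which is the value for the Cbx1 share and for the HP1 sum in P7 DKO against P7 Ctrl.

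The genes of proteins that write, erase or act with these readers were described from lists, each by its counts, beside the 17.4% of all tested genes that were higher and the 16.1% that were lower in P7 DKO. In P7 DKO against P7 Ctrl, 2 of 10 genes for H3K9 methyltransferases and their cofactors were higher and none lower, with a median log2 change of 0.09 against 0.02 over all tested genes. These were Trim28, the corepressor KAP1 that binds HP1, at 233 ± 1.9 RPKM in P7 DKO and 179.9 ± 3.5 RPKM in P7 Ctrl, and Wiz, a partner of G9a and GLP, at 36 ± 2.6 RPKM in P7 DKO and 29.9 ± 0.611 RPKM in P7 Ctrl. Of 12 HP1 partners, 2 were higher and none lower, Trim28 and Lrif1, which binds HP1 on the inactive X chromosome (17.5 ± 6.78 RPKM in P7 DKO and 6.61 ± 0.738 RPKM in P7 Ctrl). Of 9 partners of CDYL, 1 was higher (Wiz) and 3 lower. Rest, the repressor of neuronal genes that works with CDYL, had a log2 change of -1.79 ± 0.37, with 18.4 ± 10.7 RPKM in P7 DKO and 60.6 ± 1.73 RPKM in P7 Ctrl. Mier1 and Mier2, of the histone deacetylase complexes, fell by 0.43 and 0.45 on the log2 scale. Of 5 partners of Mphosph8 in HUSH silencing, Morc2a was higher (50.7 ± 0.511 RPKM in P7 DKO and 42.1 ± 0.0409 RPKM in P7 Ctrl) and Pphln1, the HUSH subunit periphilin, lower (58 ± 14.8 RPKM in P7 DKO and 85.3 ± 1.04 RPKM in P7 Ctrl).

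Of the 8 other genes for proteins that bind methylated H3K9, 2 were lower in P7 DKO, where 16.1% of all tested genes were lower and 33.5% called: Uhrf1, which also reads hemimethylated DNA, and Lrwd1, of the origin recognition complex. Uhrf1 averaged 127 ± 33.1 RPKM in P7 DKO and 178 ± 1.97 RPKM in P7 Ctrl. Of the 5 Polycomb CBX genes, whose chromodomains read methylated lysine 27 instead, 2 were lower: Cbx7 at 8.29 ± 1.29 RPKM in P7 DKO and 24.5 ± 0.165 RPKM in P7 Ctrl (log2 change -1.47), and Cbx2 at 30.5 ± 1.74 RPKM in P7 DKO and 44.5 ± 0.0162 RPKM in P7 Ctrl (-0.53). Of 10 tested H3K9 demethylase genes, 1 was higher, Kdm4c, at 6.02 ± 0.999 RPKM in P7 DKO and 2.5 ± 0.144 RPKM in P7 Ctrl. The deleted Kdm3a and Kdm3b were the 2 lower ones. In P3 DKO against P3 Ctrl, where 4.47% of all tested genes were called, the lists gave these calls: Ehmt2, the methyltransferase G9a, was higher, and Uhrf1, Lrwd1 and the replication helicase gene Mcm2 were lower, besides Kdm3a and Kdm3b. None of the 12 HP1 partners, 5 HUSH partners and 5 Polycomb CBX genes was called.

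In P7 Ctrl against P3 Ctrl, 4 of 10 methyltransferase and cofactor genes were higher and none lower, with a median log2 change of 0.39 against -0.01 over all tested genes, of which 9.94% were higher and 13.4% lower. Suv39h1, which makes the trimethylated form that HP1 binds, averaged 76 ± 1.01 RPKM in P7 Ctrl and 38.1 ± 4.36 RPKM in P3 Ctrl (log2 change 0.98 ± 0.14, limma adjusted p = 0.00321). Setdb2, Atf7ip2 and Atf7ip, the last a cofactor of the methyltransferase SETDB1, rose by 0.71, 0.88 and 0.51 on the log2 scale. Of 12 HP1 partners 3 were higher (Pogz, Sgol1 and Smarca4) and none lower. Of 10 tested H3K9 demethylase genes 1 was higher and 2 were lower. Higher were also 1 of 5 HUSH partners, 1 of 9 CDYL partners, 2 of 8 other readers and 1 of 5 Polycomb CBX genes, with none lower.

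**Figure D4:**
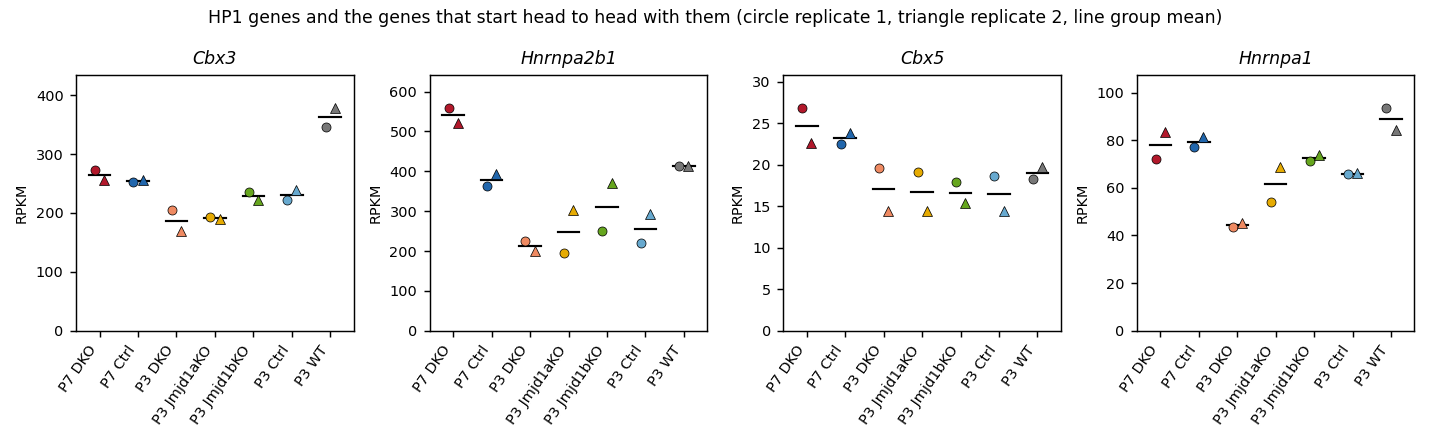
RPKM (y axis, linear, from 0) of Cbx3 and Cbx5 and of the genes that start head to head with them, Hnrnpa2b1 and Hnrnpa1, in the 7 groups. Circles are replicate 1, triangles replicate 2, lines group means. Hnrnpa2b1 was highest in P7 DKO (559 and 522 RPKM) while Cbx3 was highest in P3 WT (346 and 378 RPKM).

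Of the HP1 genes, 2 start head to head with a gene for an RNA-binding protein of the hnRNP family. In GENCODE M21 the starts of Cbx3 and Hnrnpa2b1 lie 466 bases apart, and those of Cbx5 and Hnrnpa1 616 bases apart. Hnrnpa2b1 stood at 559 and 522 RPKM in P7 DKO and 364 and 392 RPKM in P7 Ctrl (limma log2 change 0.51 ± 0.23, adjusted p = 0.113), where the change of Cbx3 was 0.06 ± 0.10. In P7 DKO against P3 DKO both were higher, with log2 changes of 1.34 ± 0.23 for Hnrnpa2b1 (adjusted p = 0.000884) and 0.51 ± 0.10 for Cbx3. Hnrnpa1 stood at 43.7 and 45.4 RPKM in P3 DKO and 65.8 and 66.2 RPKM in P3 Ctrl, a log2 change of -0.56 ± 0.12 that passed (limma adjusted p = 0.0336). Cbx5 changed by 0.04 ± 0.19 in that comparison. The difference between the genes of a pair was not tested.

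**Figure D5:**
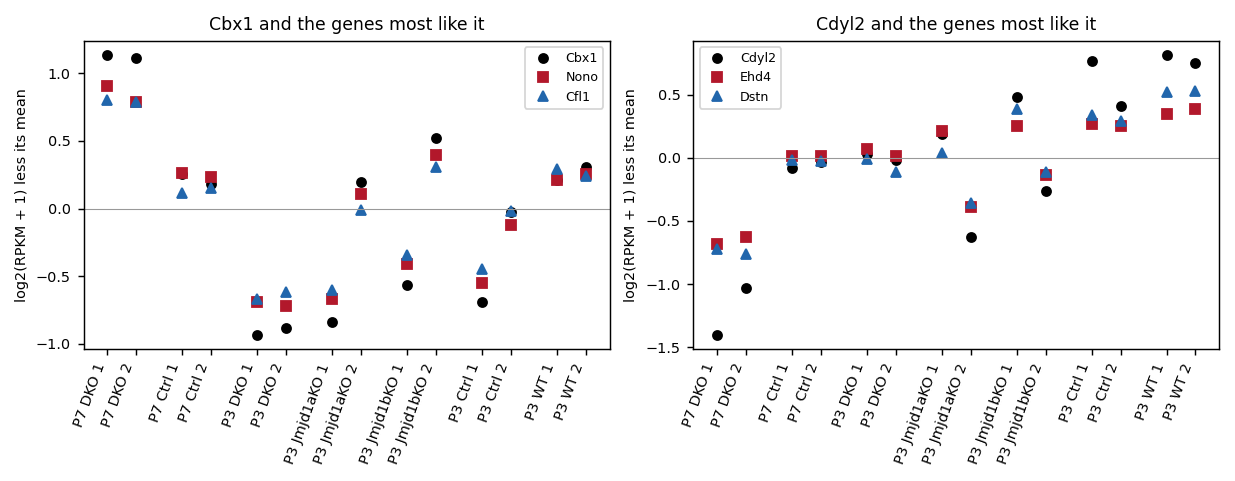
Log2(RPKM + 1) less its mean over 14 libraries (y axis) for Cbx1 with Nono and Cfl1 (left) and for Cdyl2 with Ehd4 and Dstn (right), by library (x axis). The replicates of P3 Jmjd1aKO and P3 Jmjd1bKO are split in all of these genes, and P7 DKO is at the top for Cbx1 and at the bottom for Cdyl2.

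The genes with the pattern most like each reader were sought by Pearson's r of log2(RPKM + 1) over the 14 libraries, among 8878 named genes with a mean of at least 5 RPKM. The points come in replicates of 7 groups and share marker differences between libraries, so r is a description. For Cbx1 these were Nono, an RNA-binding protein of paraspeckles (r = 0.995, 54.1 to 168 RPKM), and Cfl1, the actin-severing protein cofilin (r = 0.991). For Cdyl2 they were Ehd4, of endocytic recycling (r = 0.98), and Dstn, the actin-depolymerising protein destrin (r = 0.979). For Cbx3 they were the chromatin protein gene Dek (r = 0.969) and the translation factor gene Eif1a (0.953), and for Cbx5 Lemd3, of the inner nuclear membrane (0.958), and Gabpb2 (0.949). Cdyl was most like Cul4a (0.947) and Arl5a (0.945), and Mphosph8 most like Aldh18a1 (0.951) and Echdc1 (0.928). Among the readers themselves the highest r was that of Cbx3 with Cdyl (0.782) and the lowest that of Cbx1 with Cdyl2 (-0.603).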

How the data were processed

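Per the labels' protocols, RNA came from the AllPrep DNA/RNA Micro kit, and the TruSeq Stranded mRNA LT kit served for library construction. The deposited values are RPKM, made by the authors, 1 per gene symbol and library. The submitters' processing notes name TopHat2 2.1.1 and Cufflinks 2.1.1 and the mm10 build, with no role or annotation. No counts or library totals were used, so depth was estimated from 3505 single-transcript genes of 800 to 8000 nucleotides, of which those with few fragments gave whole numbers within 0.2 for 69.8 to 80.1% of genes, where chance gives 40%.

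The scale was log2(RPKM + 1), without rescaling. A gene was tested where 2 or more of the 14 libraries reached 1 RPKM (14772 kept, 9568 removed). limma 3.58.1 in R 4.3.3 (trended eBayes, two-sided) was fitted with 1 coefficient per group over all 14 libraries, leaving 7 residual degrees of freedom, and Benjamini-Hochberg adjustment was done separately in each of 8 comparisons. The fit was tested on simulated data. Where 1 library was left out, its partner was assumed to vary like the libraries of other groups. Positions are from GENCODE M21 (GRCm38), which held 95.8% of the symbols, and promoters from RefSeq. Protein sequences were not used here.

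The 6 members and all lists were chosen with earlier results of these data known. Named genes followed a rule: the members, the deleted genes, head-to-head neighbours within 1000 bases, list members past the threshold (up to 4 per list and comparison), and the 2 genes most like each member. The alternatives tried were a pseudocount of 0.1, no filter, median-centring, quantile normalization, only the libraries compared, no libraries with high Sertoli transcripts, the replicate block and leaving out each library.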

Additional observations from a re-analysis of the deposited data

Results flagged for a closer look

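The DKO libraries of Cbx1 and Cbx3 lay on opposite sides of the control libraries at the 2 ages, without overlap, as 21.6% of all tested genes did in either direction. Cbx1 stood at 64.5 and 63.5 RPKM in P7 DKO against 34.6 and 32.9 RPKM in P7 Ctrl, and at 14.6 and 15.2 RPKM in P3 DKO against 17.5 and 28.2 RPKM in P3 Ctrl. The interaction was 1.45 on the log2 scale (limma adjusted p = 0.0785). Cbx3 stood at 274 and 256 RPKM in P7 DKO against 253 and 255 RPKM in P7 Ctrl, and at 204 and 169 RPKM in P3 DKO against 223 and 239 RPKM in P3 Ctrl. Its interaction was 0.37 (limma adjusted p = 0.0859), and -0.16 under quantile normalization. At day 7 the gap of Cbx3 was small, with a log2 change of 0.06 (limma unadjusted p = 0.562) that was -0.20 under quantile normalization. Groups of 2 allow no test for single libraries that stand apart.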

How the results depend on the processing

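Over 48 changes (6 genes in 8 comparisons) the alternatives gave 552 values, of which 474 kept direction and side of the threshold, 21 newly passed, 19 no longer passed and 38 changed sign. Of those 38, 1 was a called change, that of Cbx3 in P7 DKO against P3 DKO under quantile normalization (-0.015), and none passed with the opposite sign. The cause was not tested. Under quantile normalization the other changes of sign were Cbx3 in P7 DKO against P7 Ctrl (-0.20) and in the interaction (-0.16), Cbx5 in the interaction (-0.018), and Cdyl in P3 Jmjd1bKO (-0.0035), with age in controls (-0.038) and in DKO cells (-0.013). Under median-centring they were Cbx5 in P3 DKO (-0.0047), P3 Jmjd1aKO (-0.013) and P3 Jmjd1bKO (-0.0020), and Mphosph8 with age in DKO cells (0.046). Without the libraries with high Sertoli transcripts they were Cbx1 in P3 Jmjd1aKO (-0.48) and P3 Jmjd1bKO (-0.20) and Cbx3 in P3 Jmjd1bKO (0.028).

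Leaving out 1 library gave ranges that span 0 for Cbx1 in P3 Jmjd1aKO (-0.48 to 0.56) and P3 Jmjd1bKO (-0.20 to 0.88), and for Cbx3 in P3 Jmjd1bKO (-0.062 to 0.037). For Cbx5 they were -0.17 to 0.25 in P3 DKO, -0.17 to 0.21 in P3 Jmjd1aKO, -0.16 to 0.19 in P3 Jmjd1bKO, -0.035 to 0.20 in P7 DKO and -0.16 to 0.25 in the interaction. For Cdyl they were -0.027 to 0.067 in P3 Jmjd1bKO and -0.034 to 0.087 with age in controls. For Mphosph8 they were -0.081 to 0.24 in P3 DKO, -0.25 to 0.070 in P3 Jmjd1aKO, -0.27 to 0.053 in P3 Jmjd1bKO and -0.073 to 0.0082 with age in DKO cells.

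The number of the 6 genes called, 2 in P7 DKO against P7 Ctrl, was 1 under median-centring, 3 under quantile normalization, with only the libraries compared, without the libraries with high Sertoli transcripts and with the replicate block, and 0 to 2 when 1 library was left out. That comparison called 33.5% of all tested genes in the main fit. The shares of all genes under most single alternatives are not given here, so these counts cannot be set against them. In P7 DKO against P3 DKO the number of the 6 genes called was 4, where 58.3% of all tested genes were. It was 2 under quantile normalization, where Cbx1 kept its call and Mphosph8 newly passed (limma adjusted p = 0.0231). In P3 Ctrl against P3 WT it was 1, and 0 under quantile normalization, with only the libraries compared, and at the lowest when 1 library was left out (0 to 1). In P3 DKO against P3 Ctrl it was 0, and 1 without a filter, under median-centring, without the libraries with high Sertoli transcripts and with the replicate block. With age in controls it was 0, and 2 without those libraries and with the replicate block, and 0 to 1 when 1 library was left out. In the interaction it was 0, and 1 under quantile normalization, with only the libraries compared, without those libraries and with the replicate block, and 0 to 1 when 1 library was left out. The labels give equal replicate numbers no pairing, and the deviations of equal numbers correlated above 0 in 17 and above 0.1 in 7 of 21 pairs of groups (-0.13 to 0.581), among them P3 Ctrl with P3 DKO (0.134), P3 Jmjd1aKO (0.169) and P3 Jmjd1bKO (0.194). With the replicate block the changes of Cbx1 in P7 DKO against P7 Ctrl (limma adjusted p = 0.0425) and in the interaction (0.0342), of Cdyl in P3 DKO (0.0465) and of Cbx5 and Mphosph8 with age in controls (0.0372 and 0.0443) newly passed, no call was lost, and the count over all genes was 1140 in P3 DKO and 776 in P3 Ctrl against P3 WT.

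The count over all tested genes moved more: from 661 to between 10 and 1931 in P3 DKO, from 4954 to between 2619 and 5900 in P7 DKO, from 104 to between 4 and 2199 in P3 Ctrl against P3 WT, and from 3441 to between 486 and 5206 with age in controls. It ran from 1635 to 4650 around 3383 in the interaction, from 6843 to 10515 around 8616 with age in DKO cells, from 3 to 12 around 5 in P3 Jmjd1aKO and from 3 to 9 around 3 in P3 Jmjd1bKO.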
